A study of Mus musculus with 12 samples.

Results

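The immediate early genes Fos, Fosb, Jun, Junb, Egr1, Atf3, Ier2, Ier3, Dusp1 and Zfp36 were followed across the 12 libraries of the study. They were chosen by symbol, with earlier results of these data known, and all 10 of the 10 symbols were present among the 55304 gene symbols counted. All 10 also had enough counts to be tested, among 15743 genes tested in all.

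Each library was made from total RNA of the colonic epithelium of 1 C57BL/6 mouse at an age of 6 weeks, and each of the 3 groups had 4 mice. EHF IKO mice carried the label of an intestinal Ehf knockout, received tamoxifen and had source names beginning with EVCER. Control-TMX mice received tamoxifen too, but were labelled wild-type and came from the source VilCreER. The series text names them Villin CreERT2 mice, included to allow for effects of the drug. Control-OIL mice received sunflower oil, were labelled wild-type and shared the EVCER prefix with EHF IKO. The product of Ehf is an epithelial transcription factor of the ETS family, and Villin CreERT2 is a Cre recombinase that tamoxifen activates in intestinal epithelium. EHF IKO and Control-TMX thus share tamoxifen and differ in mouse line and Ehf, EHF IKO and Control-OIL differ in tamoxifen together with the deletion, and the controls differ in both drug and line. The cells were released from the washed colon in a warm EDTA buffer with shaking and vortexing, pelleted and frozen. No label says that the mice were littermates or were processed on 1 day.

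Immediate early genes are transcribed within minutes of a stimulus from factors already present in the cell, without new protein synthesis. Growth factors, cytokines and stress reach them through MAP kinases, which act on serum response factor with its ETS partners and on CREB-family factors, and their transcripts are short-lived. Their products include the subunits of the AP-1 transcription factor and the inhibitors that shut the signal down again. In epithelium they are known to respond to injury, to growth factors and to the isolation of cells.

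The sequences just before the transcription starts are among the places where those signals converge, and 4 are shown because they carry different known elements. RefSeq promoter windows (short stretches around the start, GRCm38.p6) were matched for 8 of the 10 genes. The genes Egr1 and Ier2 had no entry. Capitals mark the cyclic AMP response element TGACGTCA (CRE) or its core TGACG, the AP-1-like element TGACATCA of the Jun promoter, a CArG box, the site of serum response factor, and the TATA box TATAAA. Fos (chr12:85473640-85473939, plus strand) and Jun (chr4:95052173-95052472, minus strand) rose in EHF IKO against Control-OIL. Dusp1 (chr17:26508423-26508722, minus strand) and Zfp36 (chr7:28379179-28379478, minus strand) encode feedback inhibitors.
Fos: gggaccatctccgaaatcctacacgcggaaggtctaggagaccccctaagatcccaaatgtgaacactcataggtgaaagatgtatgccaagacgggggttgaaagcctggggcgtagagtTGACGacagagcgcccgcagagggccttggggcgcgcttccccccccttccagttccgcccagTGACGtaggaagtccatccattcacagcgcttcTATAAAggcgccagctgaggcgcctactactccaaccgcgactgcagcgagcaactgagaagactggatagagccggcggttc
Jun: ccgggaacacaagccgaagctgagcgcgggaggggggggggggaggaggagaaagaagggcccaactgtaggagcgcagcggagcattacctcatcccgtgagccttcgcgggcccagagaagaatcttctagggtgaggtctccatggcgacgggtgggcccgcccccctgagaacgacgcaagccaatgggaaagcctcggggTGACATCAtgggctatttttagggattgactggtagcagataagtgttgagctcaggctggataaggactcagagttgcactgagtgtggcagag
Dusp1: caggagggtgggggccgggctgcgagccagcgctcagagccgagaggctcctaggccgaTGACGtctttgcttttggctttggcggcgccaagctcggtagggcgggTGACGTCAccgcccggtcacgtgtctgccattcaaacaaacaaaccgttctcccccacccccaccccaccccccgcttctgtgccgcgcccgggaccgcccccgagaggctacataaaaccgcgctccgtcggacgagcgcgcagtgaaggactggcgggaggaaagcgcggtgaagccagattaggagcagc
Zfp36: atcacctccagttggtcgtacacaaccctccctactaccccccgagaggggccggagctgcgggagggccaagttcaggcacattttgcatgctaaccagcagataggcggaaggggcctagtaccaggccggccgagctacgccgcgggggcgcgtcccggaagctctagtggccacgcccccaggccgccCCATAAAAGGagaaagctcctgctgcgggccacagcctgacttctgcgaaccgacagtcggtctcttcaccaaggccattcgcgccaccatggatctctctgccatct

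The Fos window held the CRE core at -129 to -125 and at -66 to -62 and a TATA box at -33 to -28, counted from the start. The Jun window held TGACATCA at -45 to -38. The Dusp1 window held a full CRE at -143 to -136, which contains the core on both strands, and a further core at -191 to -187. The Zfp36 window held a CArG box at -58 to -49 and no CRE core. On both strands, the core was present in 5 of the 8 windows (Fos, Fosb, Junb, Atf3 and Dusp1) and in 20.8% of all 32851 promoter windows of the same length. The full CRE was present in 1 of 8 and in 1.79% of all windows, TGACATCA in 1 of 8 and in 3.62%, and the CArG box in 1 of 8 and in 1.63%. The AP-1 site TGANTCA was found in 0 of 8 windows and in 7.81% of all. The early growth response site GCGNGGGCG was found in Fosb and Zfp36 (5.55% of all windows), the ETS-type sequence CCGGAA in Zfp36 (14.9%) and TATAAA in Fos and Junb (13.6%). Shorter and other forms of the ETS site, such as GGAA, were not searched for. These matches describe the letters in a short window and were not tested against binding. Elements outside the windows, farther upstream included, were not searched for.

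The libraries held 7421411 to 10344161 counted reads. Mitochondrial genes took 10.7% to 26.3% of them. By Xist and Y-linked counts, mice 1 and 2 of each group were female and mice 3 and 4 male. EHF IKO 2 stood apart, with 10.4% of its counts in 11 satellite-like symbols (at least 100 CPM and over 20 times every other library) that took at most 0.114% elsewhere. Epcam, which marks epithelium, was at 950 to 1049 CPM in EHF IKO, 840 to 974.6 CPM in Control-TMX and 869 to 994 CPM in Control-OIL. Ehf itself averaged 341 ± 30.1 CPM in EHF IKO, 345 ± 21.0 CPM in Control-TMX and 428 ± 46.4 CPM in Control-OIL (SD, n = 4 each). Those counts cover every exon of the gene and do not measure the deletion.

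Levels are given in CPM, counts scaled to library size and by TMM factors, which ranged from 0.840 to 1.23. Differences are log2 fold changes ± SE from edgeR's quasi-likelihood test, fitted to all 12 libraries. Adjusted p-values are Benjamini-Hochberg values over the 15743 genes, and a gene was called at an adjusted p under 0.05. The 95% intervals come from the same fit.

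Set against their exon length, the genes covered a wide range of levels. Over the 12 libraries, Fos had the highest mean level (65.9 ± 14.0 CPM per kb of exon, SD), followed by Junb (60.5 ± 12) and Jun (52.8 ± 8.26), all 3 above at least 96.8% of the genes tested. Ier2 (34.8 ± 8.37 CPM per kb), Atf3 (29.4 ± 10.4) and Zfp36 (18.8 ± 3.61) formed the middle of the order. Fosb (9.62 ± 3.56 CPM per kb), Egr1 (7.70 ± 2.63) and Dusp1 (6.90 ± 1.22) were lower. The lowest was Ier3 (4.34 ± 0.898 CPM per kb), which still stood above 54.0% of the genes tested. Neighbours in this order overlapped in range in all 9 cases, although Jun was above Ier2, and Zfp36 above Fosb, in 12 of 12 libraries. Fos was above Junb in 8 of 12 and Egr1 above Dusp1 in 8 of 12, so those neighbours do not differ beyond their spread. Their order also differed between groups. Junb was above Fos in Control-TMX (67.5 against 64.4 CPM per kb), and Dusp1 was above Egr1 in Control-OIL (6.60 against 5.61 CPM per kb).

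**Figure D1:**
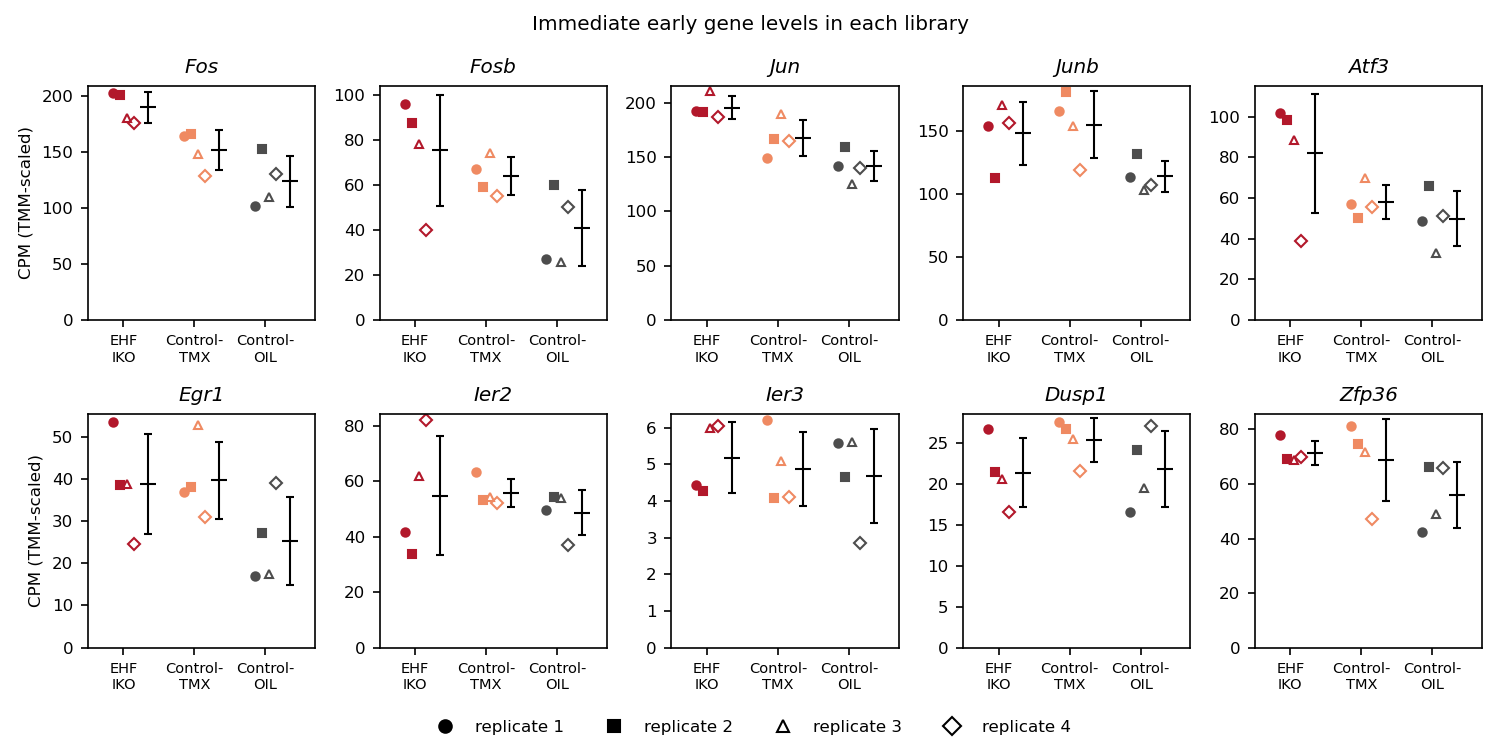
Level of each immediate early gene in CPM (vertical axis, from 0, TMM-scaled) in each of the 12 libraries, by group from EHF IKO through Control-TMX to Control-OIL. Points are mice, marked by replicate number, and the bars beside them give the mean and SD of the 4 mice. All 4 EHF IKO points of Fos (175 to 203 CPM) lie above all points of both controls (102 to 166 CPM), whereas the points of Ier2, Ier3 and Dusp1 overlap across the groups.

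Fos (ENSMUSG00000021250, chromosome 12, 85473890 to 85477273, plus strand) encodes the founding partner of Jun in AP-1. It was at 203, 201, 180.1 and 175 CPM in EHF IKO, at 164, 166, 148 and 128 CPM in Control-TMX, and at 102, 152.9, 109.6 and 130.0 CPM in Control-OIL (replicates 1 to 4). Every EHF IKO library was above every control library on the TMM scale, and the controls overlapped. With library totals alone, EHF IKO 3 (169.6 CPM) and EHF IKO 4 (161.1 CPM) were below Control-TMX 2 (180.7 CPM). All EHF IKO libraries remained above Control-OIL (at most 159.1 CPM). Fos rose in EHF IKO against Control-OIL by 0.62 ± 0.13 on the log2 scale (edgeR adjusted p = 0.0243), which is 1.53-fold with a 95% interval of 1.27 to 1.85. Against Control-TMX its log2 fold change was 0.33 ± 0.13 (edgeR adjusted p = 0.321, interval 0.06 to 0.60). Between the controls it was 0.29 ± 0.13 for Control-TMX against Control-OIL (edgeR adjusted p = 0.355).

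Jun (ENSMUSG00000052684, chromosome 4, 95049034 to 95052222, minus strand) encodes the partner common to most AP-1 dimers. It was at 193, 192, 211 and 187 CPM in EHF IKO, at 149, 167, 189.8 and 165 CPM in Control-TMX, and at 142, 159, 125 and 140.3 CPM in Control-OIL. No EHF IKO library fell into the range of Control-OIL on the TMM scale, and only Control-TMX 3 reached that of EHF IKO. With library totals alone, EHF IKO 4 (171.3 CPM) was just below Control-OIL 4 (171.6 CPM). Jun rose against Control-OIL by 0.47 ± 0.10 (edgeR adjusted p = 0.0291), 1.38-fold with an interval of 1.19 to 1.604. Its log2 fold change was 0.22 ± 0.10 in EHF IKO against Control-TMX (edgeR adjusted p = 0.402) and 0.24 ± 0.10 in Control-TMX against Control-OIL (edgeR adjusted p = 0.335). The gene Jun shares 232 exon bases with the antisense gene Junos. The counts carry no strand, and reads that fall in both genes were left out by the authors' counting.

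Both calls against Control-OIL depend on single libraries. Without EHF IKO 1, 2 or 3, or without Control-OIL 1 or 3, neither gene passed, with log2 fold changes of 0.53 to 0.64 for Fos (edgeR adjusted p 0.0575 to 0.0803) and 0.41 to 0.48 for Jun (0.0658 to 0.113). With the satellite-rich EHF IKO 2 left out, the values were 0.59 for Fos (edgeR adjusted p = 0.0665) and 0.48 for Jun (0.0658). The call of Jun was also lost without Control-OIL 4 (0.0731). Over all alternatives tried, the adjusted p ran from 0.000374 to 0.242 for Fos and from 0.000721 to 0.446 for Jun, and both were higher in EHF IKO in every one.

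Fosb (ENSMUSG00000003545, chromosome 7, 19302696 to 19310051, minus strand) encodes a second Fos-family partner. It was at 96.2, 87.8, 78.1 and 40.0 CPM in EHF IKO, at 67.3, 59.2, 74.1 and 55.2 CPM in Control-TMX, and at 27.2, 59.9, 25.7 and 50.1 CPM in Control-OIL. EHF IKO 4 was the lowest of its group, and Control-OIL was split, with replicates 1 and 3 below replicates 2 and 4. The log2 fold change against Control-OIL, 0.89 ± 0.30, was the largest of the 10 genes and did not pass (edgeR adjusted p = 0.207, interval 0.23 to 1.54). DESeq2 called it (adjusted p = 0.0465), as did edgeR without EHF IKO 4 (adjusted p = 0.0375, with 0.0375 to 0.665 over all alternatives). Against Control-TMX it was 0.24 ± 0.29 (edgeR adjusted p = 0.807).

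Atf3 (ENSMUSG00000026628, chromosome 1, 191170296 to 191218039, minus strand) encodes a stress-induced factor of the AP-1 and CREB family. Its levels were 102, 98.7, 88.5 and 39.0 CPM in EHF IKO, 56.8, 50.3, 69.7 and 55.5 CPM in Control-TMX, and 48.8, 66.1, 33.1 and 51.2 CPM in Control-OIL. EHF IKO 1, 2 and 3 exceeded all 8 control libraries, while EHF IKO 4 was lower than all of them except Control-OIL 3. The log2 fold change was 0.72 ± 0.27 against Control-OIL (edgeR adjusted p = 0.263, interval 0.14 to 1.30) and 0.50 ± 0.27 against Control-TMX (edgeR adjusted p = 0.502). Without EHF IKO 4 it was 0.95 against Control-OIL and was called (edgeR adjusted p = 0.00767, with 0.00767 to 0.657 over all alternatives).

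Junb (ENSMUSG00000052837, chromosome 8, 84974484 to 84978718, minus strand) encodes a Jun-family subunit that can restrain Jun. It averaged 149 ± 25.1 CPM in EHF IKO, 155 ± 26.7 CPM in Control-TMX and 114 ± 12.3 CPM in Control-OIL (SD, n = 4 each). Its log2 fold change was -0.06 ± 0.14 against Control-TMX (edgeR adjusted p = 0.912), 0.38 ± 0.14 against Control-OIL (0.256). Between the controls it was 0.44 ± 0.14 for Control-TMX over Control-OIL (edgeR adjusted p = 0.255), and none of the 3 passed. The exons of Junb share 173 bases with Prdx2 on the other strand.

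Egr1 (ENSMUSG00000038418, chromosome 18, 34859823 to 34864984, plus strand) encodes a zinc finger factor that is a standard readout of MAP kinase signalling through serum response factor. It was at 53.5, 38.5, 38.7 and 24.4 CPM in EHF IKO, at 36.8, 37.9, 52.6 and 30.9 CPM in Control-TMX, and at 16.9, 27.2, 17.5 and 39.1 CPM in Control-OIL. The groups overlapped, with the lowest values in Control-OIL 1 and 3. The log2 fold change was 0.62 ± 0.29 in EHF IKO against Control-OIL (edgeR adjusted p = 0.423) and 0.64 ± 0.28 in Control-TMX against Control-OIL (edgeR adjusted p = 0.369). Against Control-TMX it was -0.03 ± 0.28, with a wide interval of -0.64 to 0.58 (edgeR adjusted p = 0.981).

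Ier2 (ENSMUSG00000053560, chromosome 8, 84661331 to 84662854, minus strand), a small nuclear protein of growth-stimulated cells, varied most within EHF IKO. Its levels there were 41.7, 33.7, 61.9 and 81.8 CPM, so that the group held both the lowest and the highest of the 12 values. Control-TMX spanned 52.2 to 63.2 CPM and Control-OIL 36.8 to 54.2 CPM. Ier3 (ENSMUSG00000003541, chromosome 17, 35821684 to 35822923, plus strand), which encodes a stress-induced protein that affects cell survival, was the least abundant. It spanned 4.28 to 6.04 CPM in EHF IKO, 4.08 to 6.21 CPM in Control-TMX and 2.86 to 5.61 CPM in Control-OIL, from 479 counts in all. None of their differences passed, and the log2 fold changes of EHF IKO against Control-OIL were 0.17 ± 0.22 for Ier2 (edgeR adjusted p = 0.864) and 0.16 ± 0.24 for Ier3 (0.892).

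Neither feedback inhibitor was called in any of the comparisons. Dusp1 (ENSMUSG00000024190, chromosome 17, 26505590 to 26562128, minus strand) encodes a phosphatase that inactivates MAP kinases. It averaged 21.4 ± 4.22 CPM in EHF IKO, 25.4 ± 2.66 CPM in Control-TMX and 21.8 ± 4.70 CPM in Control-OIL (SD, n = 4 each). Its log2 fold change was -0.24 ± 0.17 against Control-TMX (edgeR adjusted p = 0.617) and -0.04 ± 0.17 against Control-OIL (0.970), the only negative value in that comparison. Zfp36 (ENSMUSG00000044786, chromosome 7, 28376784 to 28380253, minus strand) encodes tristetraprolin, which speeds the decay of AU-rich transcripts. It was at 78.0, 69.3, 68.6 and 70.0 CPM in EHF IKO, at 81.4, 74.6, 71.8 and 47.1 CPM in Control-TMX, and at 42.3, 66.3, 48.9 and 65.9 CPM in Control-OIL. Its EHF IKO and Control-OIL libraries did not overlap on the TMM scale, yet the log2 fold change of 0.35 ± 0.17 did not pass (edgeR adjusted p = 0.418). With library totals alone they overlapped (64.2 to 85.9 CPM in EHF IKO, 35.5 to 80.6 CPM in Control-OIL). Dusp1 shares 11 exon bases with Ergic1, and Zfp36 shares 125 with Gm44710, both on the other strand.

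Counted together, 2 of the 10 genes rose and 0 fell in EHF IKO against Control-OIL, where 1.68% of all genes tested were called (0.921% higher). For 9 of the 10 genes the log2 fold change was above 0, as for 48.7% of all genes, and the median of the 10 was 0.42 against -0.01 for all genes. For 3 genes (Fos, Jun and Zfp36) all EHF IKO libraries exceeded all Control-OIL libraries on the TMM scale, as for 3.25% of all genes. Of those 3, only Fos did so with library totals alone. An unadjusted p under 0.05 was reached by 6 of the 10 genes and by 11.9% of all genes. Other tools gave 2 calls among the 10 with limma-voom and 3 with DESeq2. Over all genes limma-voom called 230 and DESeq2 534 in this comparison, where edgeR called 265. DESeq2 called 305 genes in EHF IKO against Control-TMX, 196 between the controls and 471 against the mean of both controls. Since the 10 genes were chosen with earlier results of these data known, the shares of all genes are given for description and are not a test.

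Against Control-TMX, edgeR called 0 of the 10 genes, where 0.8% of all genes tested were called (126 genes, or 72 with the replicate number as a block, which left the count among the 10 at 0). DESeq2 and limma-voom also called 0. At an unadjusted p under 0.05 the count was 2 (Fos and Jun), against 11.9% of all genes. Of the 10 genes 6 were higher and 4 lower (52.6% of all genes were higher), with a median of 0.08 against 0.02 for all genes. For Fos alone of the 10 the EHF IKO libraries exceeded those of Control-TMX without overlap on the TMM scale, as for 3.32% of all genes. With library totals alone the Fos values of these groups overlapped. The intervals of Fosb (-0.40 to 0.88), Atf3 (-0.08 to 1.07) and Egr1 (-0.64 to 0.58) are wide and include 0.

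Between the controls, edgeR called 0 of the 10 genes in Control-TMX against Control-OIL, where 0.0826% of all genes were called. DESeq2 and limma-voom called 0 as well, and 4 genes (Fos, Jun, Junb and Egr1) had an unadjusted p under 0.05, against 12.9% of all genes. All 10 log2 fold changes were above 0 (48.5% of all genes), from 0.06 for Ier3 to 0.64 for Fosb and Egr1, with a median of 0.27 against -0.01 for all genes. None of the 10 separated these groups without overlap, where 3.68% of all genes were higher in Control-TMX without overlap. Since EHF IKO and Control-TMX are both set against the same Control-OIL mice, their values against it are not independent of each other.

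Set against the mean of both controls, Fos was the only one of the 10 called (0.47 ± 0.11, edgeR adjusted p = 0.0377), where 1.72% of all genes were called (0.858% higher). On the TMM scale, though not with library totals alone, its 4 EHF IKO libraries exceeded all 8 controls, as for 1.17% of all genes. Jun came next, with 0.34 ± 0.09 (edgeR adjusted p = 0.0582). Of the 10 genes 9 were higher (51.9% of all genes), and 4 had an unadjusted p under 0.05 (11.6% of all genes). Fos lost its call when any 1 of 9 libraries was left out, every one except EHF IKO 4 and Control-OIL 2 and 4, with adjusted p from 0.0138 to 0.14 over the 12 fits and log2 fold changes of 0.43 to 0.54.

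**Figure D2:**
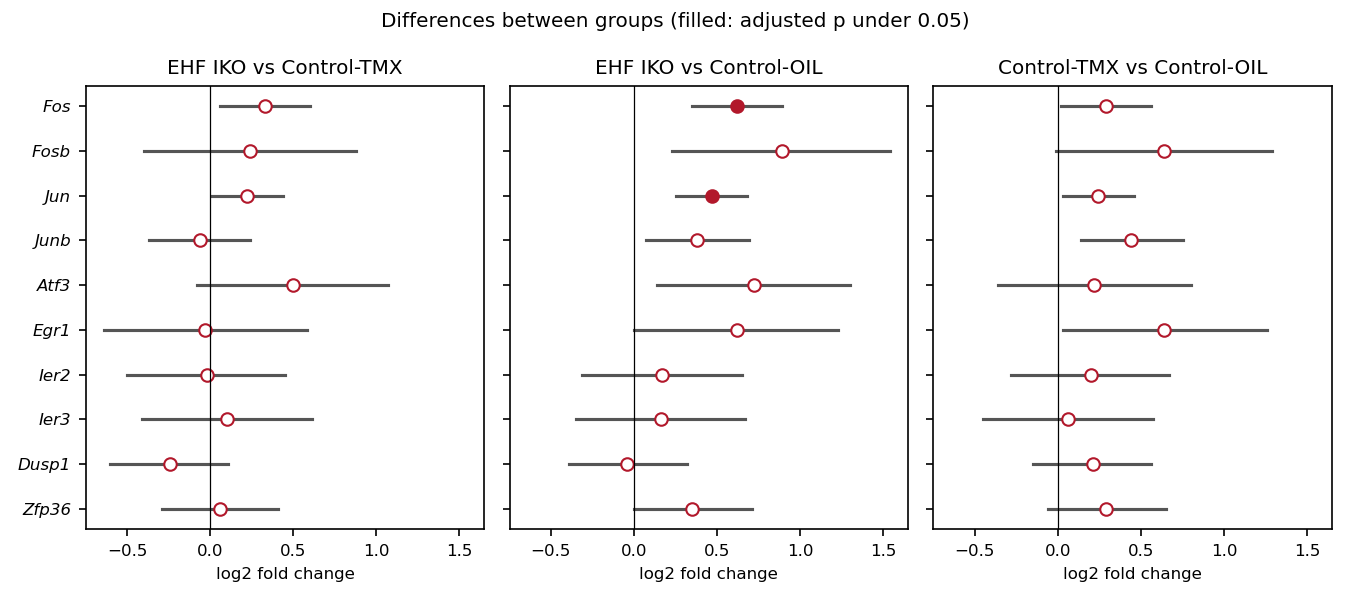
Log2 fold changes (horizontal axis) of the 10 genes in EHF IKO against Control-TMX, EHF IKO against Control-OIL and Control-TMX against Control-OIL, with 95% intervals as bars. Filled points passed an adjusted p under 0.05, which were Fos (0.62) and Jun (0.47) against Control-OIL alone, while all 10 points of the comparison between controls lie right of 0 with none filled.

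Much of the spread lay between mice of 1 group. The within-group coefficient of variation was 32.6% for Egr1, 31.5% for Fosb, 27.1% for Atf3 and 25.3% for Ier2, against medians of 11.4% to 12.8% among the 500 genes nearest to each in level. It was 13.3% for Fos and 8.75% for Jun, against 10.98% and 11.1% for their nearest genes, so the pair that passed was also the least variable of the 10. Summed over the 10 genes, the level was 952, 859, 925 and 796 CPM in EHF IKO, 819, 820.2, 845 and 679 CPM in Control-TMX, and 564, 746, 542 and 651 CPM in Control-OIL. Control-OIL 1 and 3 were among the 3 lowest libraries for 7 and 8 of the genes. EHF IKO 1 was the highest library for 4 genes and EHF IKO 3 among the 3 highest for 7. Control-TMX 1 was the highest for 3 genes and among the 3 highest for 5. EHF IKO 4 and Control-OIL 4 were each among the 3 lowest for 4.

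**Figure D3:**
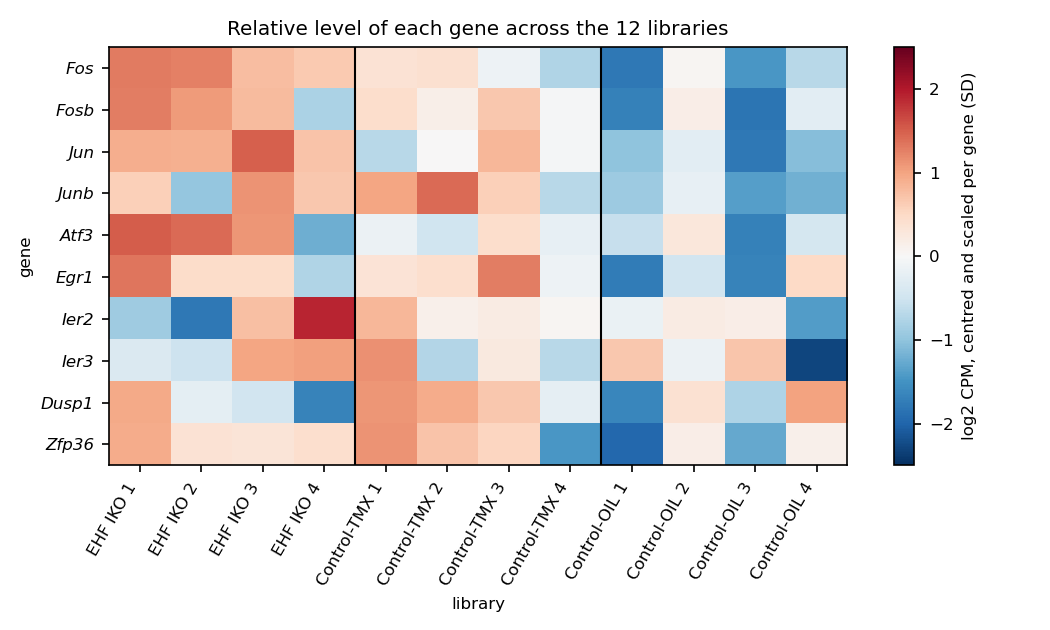
Log2 CPM of each gene (rows) in each library (columns, with EHF IKO at the left, Control-TMX in the middle and Control-OIL at the right), centred and scaled per gene over the 12 libraries, in SD units. Control-OIL 1 and 3 are pale to dark blue for most rows, and EHF IKO 4 is dark red for Ier2 (81.8 CPM) but blue for Fosb, Atf3, Egr1 and Dusp1.

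The genes varied together in blocks. Over the 12 libraries, 15 of the 45 pairs had a Pearson correlation of log2 CPM with an adjusted p under 0.05 (permutation test with 100000 resamples, two-sided, Benjamini-Hochberg over the 45 pairs), and 8 had such a Spearman correlation. The median Pearson r was 0.50, from -0.50 to 0.91. The resampling took no account of the groups, so differences between groups can enter these values. The share of other gene pairs that would pass was not computed. Fosb went with Egr1 (r = 0.91, rho = 0.77, permutation adjusted p = 0.0036 and 0.036) and with Atf3 (r = 0.88, rho = 0.97, permutation adjusted p = 0.0036 and 0.00045). Without the 2 libraries farthest from the median of Fosb, r was 0.75 with Egr1 and 0.95 with Atf3. Fos went with Fosb (r = 0.83, rho = 0.78, permutation adjusted p = 0.0099 and 0.036) and Jun (r = 0.80, rho = 0.82, permutation adjusted p = 0.018 and 0.036), with r of 0.57 and 0.66 without the 2 farthest libraries. Zfp36 passed by r in 4 of its 9 pairs and by rho in 0. Its relation with Fos (r = 0.84, rho = 0.71, permutation adjusted p = 0.0099 and 0.055) had r = 0.62 without those 2 libraries. The relation of Fos with Egr1 (r = 0.69, rho = 0.55, permutation adjusted p = 0.042 and 0.18) rests on those libraries, since r without them was 0.22.

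Over the 12 libraries, Ier2 and Ier3 stood apart from most of the other genes. They went with each other (r = 0.73, rho = 0.78, permutation adjusted p = 0.033 and 0.036, and r = 0.81 without the 2 farthest libraries), and 5 of the 9 correlations of each were negative. Taken as deviations from group means, which removes the differences between groups, the Ier2 pair kept r = 0.75. Fosb with Atf3 kept 0.89, Fosb with Egr1 0.87 and Fos with Zfp36 0.88, whereas Fos with Jun had 0.25. The median over the 45 pairs was 0.29 as deviations, against 0.50 before. Within the 6 female and the 6 male libraries the median r over the 45 pairs was 0.52 and 0.53. Single pairs differed more. In females r was -0.44 for Ier2 with Fos and -0.79 with Jun, and in males 0.63 and 0.57. For Ier3 with Fos and Jun it was -0.54 and -0.76 in females, and 0.45 and 0.46 in males. Both genes had a negative r with Fosb, Egr1 and Atf3 in each sex. The number of called pairs dropped to 3 without Control-OIL 3, 5 without EHF IKO 1, 6 without EHF IKO 3 and 7 without Control-OIL 1.

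**Figure D4:**
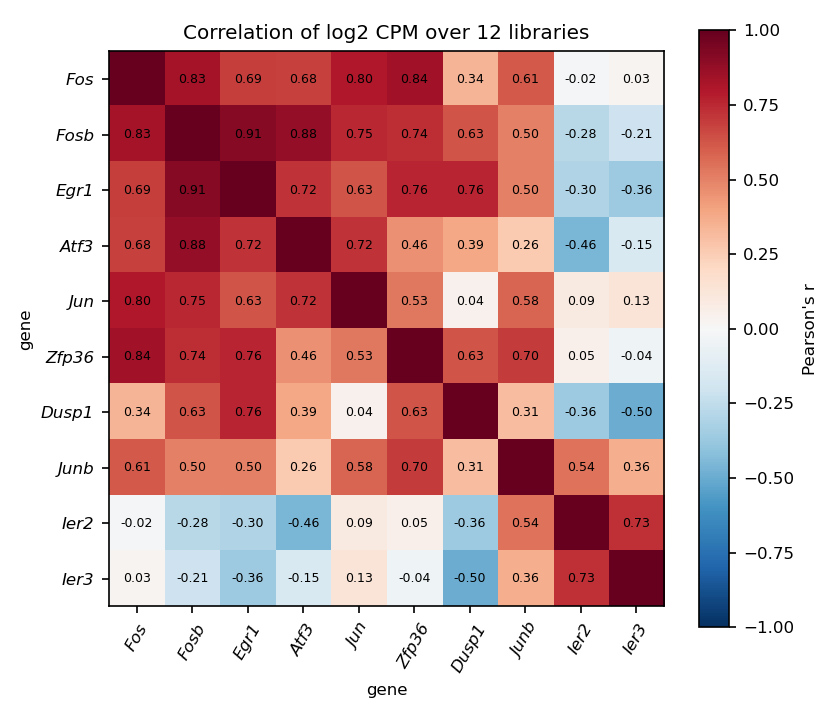
Pearson's r of log2 CPM over the 12 libraries for each pair of the 10 genes, on a scale from -1 to 1. Fosb, Egr1, Atf3, Fos and Jun form the block of high values at the upper left (r = 0.63 to 0.91), and Ier2 and Ier3 stand apart with each other (r = 0.73).

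Markers of stromal cells moved with some of these values. The summed level of the 9 smooth muscle markers, 8 of them tested, was 55.9, 67.2, 85.8 and 25.9 CPM in EHF IKO, 64.6, 108, 83.3 and 46.6 CPM in Control-TMX, and 24.9, 45.3, 19.2 and 47.2 CPM in Control-OIL. Its 3 lowest libraries, Control-OIL 3, Control-OIL 1 and EHF IKO 4, were also the 3 lowest for Fosb, Egr1, Atf3 and Dusp1. The smooth muscle myosin gene Myh11 was at 8.73 to 34.7 CPM in EHF IKO, 19.0 to 43.4 CPM in Control-TMX and 5.61 to 19.8 CPM in Control-OIL. None of the 8 tested markers was called in any comparison by edgeR. At an unadjusted p under 0.05 there were 0 in EHF IKO against Control-TMX and 3 in EHF IKO against Control-OIL (11.9% of all genes in each). For Control-TMX against Control-OIL there were 7 (12.9% of all genes), and DESeq2 called 1 (Des), where it called 196 of all genes. Their median log2 fold change was -0.23 in EHF IKO against Control-TMX, 0.75 in EHF IKO against Control-OIL and 1.08 between the controls (Control-TMX over Control-OIL).

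The 10 fibroblast markers, 9 of them tested, summed to 401 to 962 CPM in EHF IKO, 422 to 705 CPM in Control-TMX and 293 to 409 CPM in Control-OIL. The collagen genes Col3a1 (1.05 ± 0.22, edgeR adjusted p = 0.0318) and Col1a2 (1.10 ± 0.25, edgeR adjusted p = 0.0445) rose in EHF IKO against Control-OIL. They were the only 2 of the 9 that edgeR called, against 1.68% of all genes. Limma-voom called 0 of the 9 in this comparison and DESeq2 called 3, adding Col1a1, where DESeq2 called 534 of all genes and edgeR 265. Their calls held in 4 and 3 of the 12 fits with 1 library left out, with adjusted p from 0.00161 to 0.101 and from 0.00239 to 0.136. Here EHF IKO 4 was at 806 CPM, above the median of its group. The median log2 fold change of the tested fibroblast markers was 0.25 in EHF IKO against Control-TMX, 0.52 in EHF IKO against Control-OIL and 0.27 for Control-TMX over Control-OIL. The 9 endothelial markers, 4 of them tested, summed to 9.27 to 18.8 CPM in EHF IKO, 9.54 to 15.1 CPM in Control-TMX and 5.35 to 8.52 CPM in Control-OIL. The tested ones had medians of -0.06, 0.97 and 1.03 on the log2 scale in the same 3 comparisons. The 20 immune markers, 9 of them tested, summed to 51.3 to 98.4 CPM in EHF IKO, 48.0 to 64.0 CPM in Control-TMX and 56.7 to 74.0 CPM in Control-OIL. Median log2 fold changes of the tested ones were 0.51 (9 of 9 higher), 0.34 (6 of 9) and -0.32 (2 of 9) in those comparisons. The 10 neuron and glia markers, 3 of them tested, summed to 5.24 to 14.2 CPM in EHF IKO, 11.03 to 13.5 CPM in Control-TMX and 7.52 to 11.97 CPM in Control-OIL. Medians of the tested ones were -0.51, -0.29 and 0.15. EdgeR called none of the endothelial, immune, neuron and glia markers in any comparison, and DESeq2 called 1, the endothelial gene Pecam1, in EHF IKO against Control-OIL. The glial marker Sox10 was at 0 in 1 library and at most 0.741 CPM. The 15 epithelial markers summed to 23499 to 27577 CPM in EHF IKO, 30461 to 35551 CPM in Control-TMX and 20257 to 32872 CPM in Control-OIL. Much of each sum came from the mucin gene Muc2 (12271 ± 1193, 20224 ± 2155 and 15782 ± 4439 CPM in those groups). DESeq2 called Muc2 lower in EHF IKO against Control-TMX, and edgeR did not (-0.72 ± 0.18, edgeR adjusted p = 0.0823). Median log2 fold changes of the 15 were 0.12 (11 higher), 0.26 (13 higher) and 0.11 (12 higher) in the same comparisons. Only Krt20, a keratin of mature surface cells, was called by edgeR, in EHF IKO against Control-OIL (0.71 ± 0.17, edgeR adjusted p = 0.0438), where 1.68% of all genes were called. That call held in 1 of the 12 fits with 1 library left out. The part of these cells in the levels of the immediate early genes was not tested, and in bulk RNA fewer cells of a type and less RNA per cell cannot be told apart.

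A few other genes listed as immediate early genes were called too. Of 39 further immediate early genes tested, 2 rose and 0 fell in EHF IKO against Control-OIL, where 0.921% of all genes rose. An unadjusted p under 0.05 was reached by 11 of the 39 and by 11.9% of all genes, and the median log2 fold change of the 39 was 0.21, against -0.01 for all genes. The genes that rose were Errfi1, an inhibitor of the EGF receptor (122 ± 36.0 CPM in EHF IKO, 90.3 ± 6.79 CPM in Control-TMX and 66.4 ± 10.8 CPM in Control-OIL, log2 fold change 0.87 ± 0.18, edgeR adjusted p = 0.0248), and the small GTPase gene Rhob (0.43 ± 0.10, edgeR adjusted p = 0.0404). With 1 library left out, Errfi1 was called in 6 of 12 fits (adjusted p 0.000791 to 0.0806) and Rhob in 3 (0.0167 to 0.154). Limma-voom called the same 2 genes, and DESeq2 called 5, adding Klf4, Klf6 and Trib1. Of all genes limma-voom called 230 there, DESeq2 534 and edgeR 265. Against Control-TMX edgeR, DESeq2 and limma-voom called 0 of the 39, with 7 at an unadjusted p under 0.05 (11.9% of all genes). The smallest p there belonged to Plk2 (-0.66 ± 0.18, edgeR adjusted p = 0.130) and Klf6 (0.57 ± 0.16, 0.148). Against the mean of both controls 3 rose, the pseudokinase gene Trib1 (0.62 ± 0.14, edgeR adjusted p = 0.0435), Errfi1 (0.65 ± 0.15, 0.0451) and the zinc finger factor gene Klf6 (0.58 ± 0.14, 0.0495), each called in 2 of the 12 fits with 1 library left out (adjusted p 0.00143 to 0.214 over the 3 genes), where 0.858% of all genes rose. Limma-voom called 0 of the 39 there, and DESeq2 called 5, of which 4 were higher (these 3 and Rhob) and Plk2 was lower. Of all genes DESeq2 called 471 in that comparison and edgeR 270. In Control-TMX against Control-OIL edgeR, DESeq2 and limma-voom called 0, with 4 at an unadjusted p under 0.05 (12.9% of all genes).

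The rest of the AP-1 family and the signalling route did not pass. Of 10 further AP-1 family genes tested, edgeR, DESeq2 and limma-voom called 0 in any comparison. At most 1 in each had an unadjusted p under 0.05, against 11.6% to 12.9% of all genes. Fosl2, a Fos-family gene, was at 363 ± 75.9 CPM in EHF IKO, 362 ± 37.2 CPM in Control-TMX and 275 ± 44.1 CPM in Control-OIL (0.40 ± 0.15 against Control-OIL, edgeR adjusted p = 0.266). Of 30 genes of the MAP kinase, serum response factor and CREB route, the same tools called 0 in any comparison. An unadjusted p under 0.05 was reached by 2 to 5 of them, against 11.6% to 12.9% of all genes. Srf itself had 0.28 ± 0.13 against Control-OIL (edgeR adjusted p = 0.395). Of 20 ERK feedback and delayed early genes edgeR called only the ephrin receptor gene Epha4, which fell in EHF IKO against Control-OIL by 0.97 ± 0.22 (edgeR adjusted p = 0.0353, with 0.00268 to 0.116 over the 12 fits with 1 library left out and a call in 5). In that comparison 1.68% of all genes were called. The ERK phosphatase gene Dusp6 was at 60.5 ± 6.61 CPM in EHF IKO, 33.9 ± 10.6 CPM in Control-TMX and 46.4 ± 10.1 CPM in Control-OIL (0.83 ± 0.20 against Control-TMX, edgeR adjusted p = 0.0777), and DESeq2 called that difference.

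Related stress responses were set beside them. Of 17 tested NF-kB early genes edgeR called 0 in any comparison, with 2 to 5 at an unadjusted p under 0.05 (11.6% to 12.9% of all genes). The NF-kB inhibitor gene Tnip1 came closest (0.44 ± 0.11 with both controls averaged, edgeR adjusted p = 0.0695). DESeq2 called Tnip1 in that comparison and Tnf in Control-TMX against Control-OIL. Of 16 heat shock genes edgeR also called 0, with 1 to 6 at an unadjusted p under 0.05 (11.6% to 12.9% of all genes). Their median log2 fold change was -0.11 in EHF IKO against Control-OIL and -0.24 between the controls (Control-TMX over Control-OIL). The chaperone gene Hspa5 was at 252 ± 26.0 CPM in EHF IKO, 222 ± 54.2 CPM in Control-TMX and 389 ± 100.6 CPM in Control-OIL (-0.63 ± 0.18 in EHF IKO against Control-OIL, edgeR adjusted p = 0.115). DESeq2 called Hspa5 against Control-OIL in EHF IKO and in Control-TMX.

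The genes whose pattern was most like that of the 10, by Pearson r over the 12 libraries with their mean scaled log2 CPM, included Smad7 (r = 0.94), Sult2b1 (0.93), Tpm2 (0.93), St3gal3 (0.92), Capn9 (0.92), Ppp1r10 (0.91), Snrk (0.90), Scnn1a (0.90) and Itpkc (0.90). They come from 11765 genes with a mean log2 CPM of at least 1, and Gm-number and Rik symbols were left out. The libraries and their scaling are shared by all values. Smad7, the inhibitor of TGF-beta signalling, was at 137.2 ± 8.85 CPM in EHF IKO, 124 ± 5.95 CPM in Control-TMX and 103 ± 14.6 CPM in Control-OIL. Tpm2, a muscle tropomyosin, was at 23.3 ± 7.31 CPM in EHF IKO, 22.6 ± 5.09 CPM in Control-TMX and 9.89 ± 3.11 CPM in Control-OIL. Of 37 other immediate early genes that could be ranked, Klf4 (r = 0.87) and Plk3 (0.85) were among the nearest 50 and 7 among the nearest 500. Of 8 smooth muscle markers, 6 were among the nearest 500, led by Des (r = 0.89). The median r was 0.74 for the 8 smooth muscle markers, 0.71 for the 2 endothelial markers that could be ranked, 0.53 for 8 fibroblast markers and 0.41 for the 10 other AP-1 family genes. It was 0.30 for the 15 epithelial markers, 0.21 for 16 NF-kB early genes, 0.20 for the other immediate early genes and 0.19 for 6 immune markers. The ERK feedback genes (-0.01), the MAP kinase route (-0.06), the neuron and glia markers (-0.31) and the heat shock genes (-0.49) were lower, and all 11765 genes had a median of -0.09.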

How the data were processed

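The deposited values are raw read counts. Per the file headers, the authors used featureCounts 1.6.1 from Subread on the exons of Ensembl GRCm38 release 98, grouped by symbol, with strand setting 0 (unstranded). STAR aligned the reads, per the submitters' processing notes (STAR version: not given in the sources used here). Each library is 1 mouse and totals were 7421411 to 10344161 counts. Ier3 rested on 29 to 48 reads per library and Fos on 730 to 1739.

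Groups came from the labels. One edgeR 4.0.16 (R 4.3.3) quasi-likelihood model held all 12 libraries, with TMM scaling, the filterByExpr filter, the legacy and robust settings and 9 residual degrees of freedom, and was tested on simulated data. The common biological coefficient of variation was 18.3%. DESeq2 1.42.0 and limma-voom (limma 3.58.1) were alternatives, beside other scalings, filters and covariates, the compared groups alone, a 2-fold minimum and each library left out. Log2 CPM for correlations used a prior count of 2.

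The 10 genes and the 12 further lists, written from general knowledge, were chosen with earlier results of these data known. From each list the text names up to 4 called genes with the smallest p per comparison, or up to 2 where none passed, and some were left out for space. Klf4, Plk3, Tpm2, Smad7 and Des were named by their correlation (1 gene of the 10 nearest is not reported here), and Tnf and the genes called by DESeq2 or limma-voom after their values were seen. Replicate numbers are shared between groups. Deviations from group means correlated between same-numbered mice at 0.27, 0.15, 0.12 and 0.46 for EHF IKO with Control-TMX, each over 0.1, which was the criterion for a pairing. The printed differences come from the fit without the block, and the blocked count stands beside them. Same-sex mice of different numbers correlated at 0.25 and 0.21 (females) and 0.036 and 0.050 (males). Same-numbered mice correlated at -0.42 to 0.23 for EHF IKO with Control-OIL and -0.30 to 0.11 for the controls. Promoter windows are RefSeq sequences.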

Additional observations from a re-analysis of the deposited data

Results flagged for a closer look

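Of the 30 sets of 4 libraries (10 genes in 3 groups), 1 held a library far from the others. Zfp36 was at 78.0 CPM in EHF IKO 1, against 68.6 to 70.0 CPM in the other 3 EHF IKO mice. Chance flags about 1 set in 20. Without EHF IKO 1 the log2 fold change of Zfp36 against Control-OIL was 0.31, and it did not pass with that library or without it (edgeR adjusted p = 0.418 and 0.699, with 0.252 to 0.929 over all alternatives).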

How the results depend on the processing

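In EHF IKO against Control-OIL, 2 of the 10 genes were called. The count was 0 with library totals alone, 0 with the compared groups alone, 0 with a 2-fold minimum, 1 (Fos) with a replicate block and 3 with DESeq2. With 1 library left out it ran from 0 to 4, the highest (Fos, Jun, Fosb and Atf3) without EHF IKO 4. Against the mean of both controls, where 1 was called, the count was 0 with library totals alone, with a replicate block and with a 2-fold minimum, 2 with DESeq2, and 0 to 3 with 1 library left out. In Control-TMX against Control-OIL, where 0 were called, 1 (Junb, 0.46, edgeR adjusted p = 0.0266, with 0.0266 to 0.709 over all alternatives) was called without the filter on low counts. In EHF IKO against Control-TMX the count was 0 under every alternative run. Called correlations, 15 of 45 pairs, numbered 3 to 17 with 1 library left out, 22 with library totals alone and 10 as deviations from group means.

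Same-numbered mice of EHF IKO and Control-OIL, or of the controls, did not all correlate, so the replicate block there joins mice that share a number only. It changed the all-gene counts to 72, 173 and 18 for EHF IKO against Control-TMX, EHF IKO against Control-OIL and Control-TMX against Control-OIL, where the fit without it gave 126, 265 and 13. DESeq2 gave 305, 534 and 196, library totals alone 67, 120 and 5, and no filter 500, 724 and 441, where the median of all genes moved to 0.14 and 0.15 in the EHF IKO comparisons. With 1 library left out these counts ran from 50 to 162, 104 to 711 and 3 to 67, the highest of each without EHF IKO 4.

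Of 910 log2 fold changes of the 10 genes under the alternatives, 856 kept direction and side of the threshold, 30 lost a call, 8 gained one and 16 changed sign, all of these with a library left out. The changes of sign fell on values near 0. With 1 library left out, EHF IKO against Control-TMX ran from -0.28 to 0.15 for Ier2, -0.17 to 0.05 for Junb, -0.22 to 0.14 for Egr1 and -0.086 to 0.15 for Zfp36. EHF IKO against Control-OIL ran from -0.089 to 0.35 for Ier2, -0.17 to 0.090 for Dusp1 and -0.023 to 0.26 for Ier3. Ier3 ran from -0.13 to 0.16 in Control-TMX against Control-OIL, and Ier2 from -0.19 to 0.25 in EHF IKO against the mean of both controls. The causes were not tested. Ier3, with 479 counts over the 12 libraries, has the fewest counts of the 10, while the SE was largest for Fosb.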
